A study of Homo sapiens with 12 samples.

Results

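The retained introns of at most 300 nucleotides (nt) were taken from the table of intron-retention events deposited for AsPC-1, an established human pancreatic cancer cell line. Of 5334 events, 2512 had an intron of at most 300 nt with both ends counted, and 2105 of these had a mean of at least 20 reads per sample (intron coverage plus spliced junction reads). The other 407 short introns were below this limit. The 2105 introns lay in 1187 genes: 834 genes held 1 of them, and 1271 introns shared their gene with another. They were compared with the 2433 introns over 300 nt that passed the same read limit. On either side of the length limit stood ACTMAP and KCNN4 at 300 nt, with a mean share retained of 0.961 and 0.897, and PPFIBP2 and TMEM126B at 301 nt, with 0.955 and 0.994.

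The study set HIF-dependent isoforms in these cells as its question and measured 4 groups of 3 replicates (A, B and C). Cells were transfected with siRNA, either scrambled (siControl) or directed at ARNT (siARNT), were divided the next day, and spent 24 h at 1% O2 (hypoxia) or at normal oxygen (normoxia). All 4 groups were transfected. The labels describe triplicate wells of 1 line and name no separate cultures, so p-values measure the spread between these samples, which may be technical.

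HIF is a transcription factor of an oxygen-regulated alpha subunit and the constant partner ARNT, and it drives many genes at low oxygen. An intron is retained when it stays in the polyadenylated RNA in place of being removed between its GT and AG ends. Short introns are common in GC-rich genes, and retention in splicing-factor genes is a known way of limiting their protein output. The share retained is given as PSI (percent spliced in, a fraction): mean read coverage of the intron over that coverage plus the reads that span its spliced junction.

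The data went partly against the name of retained intron, since many of the events matched no known intron. Of the 2105, 1043 (49.5%, in 749 genes) matched an intron of the GENCODE 29 annotation of the same gene in length and in at least 1 neighbouring exon, and are called annotated here. Another 1022 (48.6%, in 553 genes) matched no annotated intron, and 40 matched in length alone. Annotated introns had a median PSI of 0.805 (quartiles 0.335 and 0.948), a median length of 145 nt, a median coverage of 34.4 and 13.7 junction reads. The unannotated ones had a median PSI of 0.99 (0.962 to 0.998), a coverage of 292 and 5.83 junction reads, so a rare junction stood beside high coverage. PSI was above 0.9 for 392 annotated introns (37.6%) and for 916 unannotated ones (89.6%). Coverage of the intron relative to its neighbouring exons had a median of 0.448 in the annotated class and 0.978 in the unannotated class. Of the 455 unannotated introns that could be placed, 264 (58%) lay wholly inside a coding exon, against 153 of 1042 annotated ones (14.7%). Unannotated introns matched no annotated intron, so they could be placed only through the length of an annotated exon that contained them. Annotated introns could be placed through the matched intron. The contrast in these shares therefore depends on how each class was placed, and no conclusion is drawn from it.

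**Figure D1:**
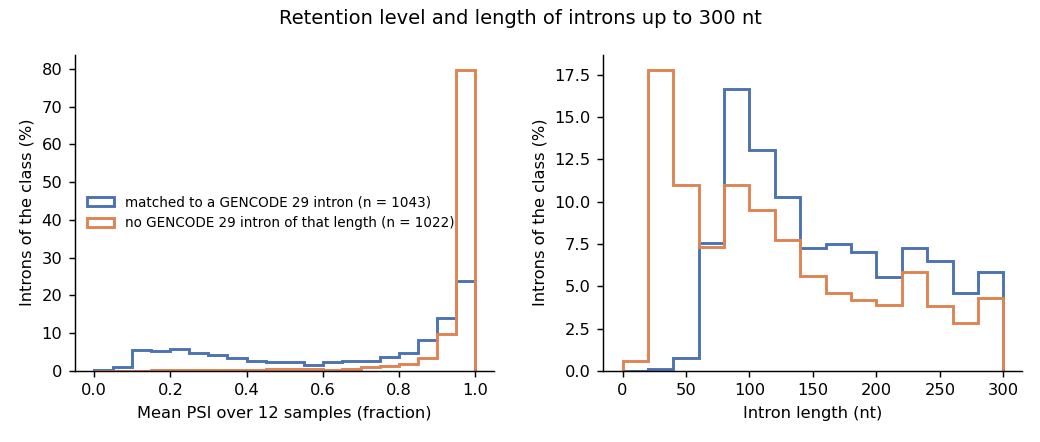
Share of the introns of each class (%) by mean PSI over 12 samples (left, fraction) and by intron length (right, nt), for the annotated and unannotated introns of at most 300 nt. Unannotated introns pile up near a PSI of 1 (median 0.99), while annotated introns spread over the whole range (median 0.805).

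Sequences are shown for the 3 annotated introns called in a comparison (TIAL1, CCDC107 and CYP3A5) and for 3 that were called under other settings and not in the fit over all introns with junction reads (THOC2, COMMD3 and RBM39), all with GT and AG ends. The file positions named no genome build, so introns were placed in GRCh38 through GENCODE 29, and the sequences are from its transcripts, 5′ to 3′ on the strand of the gene. Capitals mark the first and last 2 bases. TIAL1 lies at chr10:119576751-119576846 on the minus strand, THOC2 at chrX:123623710-123623786 on the minus strand, COMMD3 at chr10:22318714-22318805 on the plus strand, and RBM39 at chr20:35740598-35740823 on the minus strand. Of the CCDC107 intron of 98 nt (chr9:35660648-35660745, plus strand) and the CYP3A5 intron of 108 nt (chr7:99676209-99676316, minus strand) only the first and last 20 bases are shown.
TIAL1 96 nt: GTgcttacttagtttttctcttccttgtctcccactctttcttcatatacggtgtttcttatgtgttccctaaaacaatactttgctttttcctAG
THOC2 77 nt: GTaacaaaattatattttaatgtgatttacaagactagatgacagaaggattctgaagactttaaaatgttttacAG
COMMD3 92 nt: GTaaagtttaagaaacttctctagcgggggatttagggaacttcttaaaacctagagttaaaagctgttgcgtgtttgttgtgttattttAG
RBM39 226 nt: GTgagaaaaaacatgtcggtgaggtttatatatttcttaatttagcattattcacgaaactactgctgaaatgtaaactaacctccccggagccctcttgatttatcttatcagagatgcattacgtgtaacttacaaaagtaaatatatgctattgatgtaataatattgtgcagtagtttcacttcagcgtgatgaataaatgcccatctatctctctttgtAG
CCDC107 98 nt, start: GTgaggagagcaatgattct
CCDC107 98 nt, end: ctgagtggacatttcttcAG
CYP3A5 108 nt, start: GTacatattacctccctctc
CYP3A5 108 nt, end: atttctgtttcactttgtAG

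The unannotated class held other ends, shown here for EEF1A1, the translation elongation factor with the highest coverage, and for RPL37, a ribosomal protein gene with a called intron of 28 nt that rested on few junction reads. The EEF1A1 introns lie on the minus strand at chr6:73519409-73519486, chr6:73519442-73519471 and chr6:73519024-73519183, the second inside the first. The RPL37 intron lies at chr5:40834556-40834583 on the minus strand. Capitals again mark the first and last 2 bases, and only the longest of the nested EEF1A1 pair has GT and AG.
EEF1A1 78 nt: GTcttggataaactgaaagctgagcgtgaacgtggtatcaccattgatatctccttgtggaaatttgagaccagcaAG
EEF1A1 30 nt: AAagctgagcgtgaacgtggtatcaccaTT
EEF1A1 160 nt: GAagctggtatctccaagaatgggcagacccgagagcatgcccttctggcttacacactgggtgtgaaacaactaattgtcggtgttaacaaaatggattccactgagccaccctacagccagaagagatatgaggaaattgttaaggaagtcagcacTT
RPL37 28 nt: AAagcgtcgcaataagacgcacacgtTG

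Over the whole class, GT and AG ended 832 of the 889 annotated introns with a sequence (93.6%), GC and AG 50 (5.6%), AT and AC 4, and other pairs 3. Among unannotated introns 316 of 455 (69.5%) had GT and AG and 84 (18.5%) had none of these pairs. Only 44.5% of the unannotated introns had a sequence, fewer than the 80% set for such a check, so their shares describe the placed ones alone. A start of GTAAG or GTGAG, searched on the gene's strand, was found in 273 annotated introns (30.7%), in 34.1% of annotated introns over 300 nt and in 11.2% of unannotated ones. The 20 bases before the last 2 held a median of 70% C and T in annotated introns and 55% in unannotated ones. Median PSI of annotated introns did not follow length: it was 0.653 at 1 to 80 nt (n = 97), 0.76 at 81 to 100 nt (n = 171), 0.864 at 101 to 150 nt (n = 274), 0.693 at 151 to 200 nt (n = 192) and 0.83 at 201 to 300 nt (n = 309). Spearman's rho of PSI was 0.02 with length across these introns, and 0.01 with GC content across the 889 with a sequence. Both are given as a description because introns share libraries and genes. The shortest events were 1 nt in DCAF7 and 2 nt in VPS11 and EI24, and 23 introns had exactly 21 nt.

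A few genes held many short introns. SEC14L1, a gene of the SEC14-like family, had 126, none of them annotated, with lengths of 23 to 299 nt and PSI of 0.573 to 0.998, and 88 had a length that is a multiple of 13. EEF1A1 had 63, none of them annotated, with a coverage of 10200 to 101021 reads. UBB, a gene that encodes ubiquitin units joined head to tail, had 10. Of the UBB introns 3 were 228 nt long (PSI 0.385 to 0.901), and the others had PSI of at least 0.987. The 228 nt UBB intron with the most junction reads (chr17:16382131-16382358, plus strand) matched an annotated intron and was 96.9% identical to the 228 bases that follow it (chr17:16382359-16382586). Capitals mark the 7 bases that differ, and the junction could be moved over 107 bases without changing the spliced sequence.
UBB intron: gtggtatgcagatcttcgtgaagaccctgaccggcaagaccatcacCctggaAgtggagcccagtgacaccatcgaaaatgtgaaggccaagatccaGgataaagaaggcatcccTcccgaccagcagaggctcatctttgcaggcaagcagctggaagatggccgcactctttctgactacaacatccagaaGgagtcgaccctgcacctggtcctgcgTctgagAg
UBB next block: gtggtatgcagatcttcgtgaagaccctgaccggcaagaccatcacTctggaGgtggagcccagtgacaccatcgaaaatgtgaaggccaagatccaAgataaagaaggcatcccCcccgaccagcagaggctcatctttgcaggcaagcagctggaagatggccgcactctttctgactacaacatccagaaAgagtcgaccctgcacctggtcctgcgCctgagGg

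PSI of that UBB intron was 0.383 ± 0.003 in normoxic siControl cells, 0.388 ± 0.002 in normoxic siARNT, 0.383 ± 0.005 in hypoxic siControl and 0.384 ± 0.003 in hypoxic siARNT cells (SD, n = 3). Another UBB intron of 228 nt stood at 0.691 to 0.718 in 1 library of each group and at 1.000 in the other 8. Identity of at least 80% between an intron and the block after it was found in 8 of the 1246 introns for which both were read, UBB among them.

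Libraries differed in depth, and 1 stood apart in its unannotated introns. Gene counts ran from 38.53 to 84.34 M reads per library, and the members' junction reads from 100344 to 237406. The siRNA target ARNT was at 62.4 ± 1.53 CPM (counts per 1 M reads) in normoxic siControl, 13.4 ± 0.56 in normoxic siARNT, 69.1 ± 3.81 in hypoxic siControl and 15.3 ± 1.04 in hypoxic siARNT cells (SD, n = 3). Epithelial markers were high (EPCAM 794 to 1040 CPM, KRT8 1180 to 3460, KRT18 1150 to 2490), KRT7 was at 1.1 to 4.01, and CD14, PDGFRB and VWF were under 1. In hypoxic siARNT replicate A, 127 members had a junction read there alone, against 2 to 24 in the other 11 libraries, and 124 of them were unannotated. The median PSI of unannotated introns was 0.9785 in that library and 0.9997 to 1.0 in the others. Its annotated introns had a median PSI of 0.8276, above the 0.7959 and 0.7895 of replicates B and C, so direction counts and calls for hypoxic siARNT cells are also given without it. Normoxic siARNT replicate B had the lowest median PSI of annotated introns, 0.7586, below the 0.7979 and 0.7949 of replicates A and C. Direction counts are also given without that library.

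**Figure D2:**
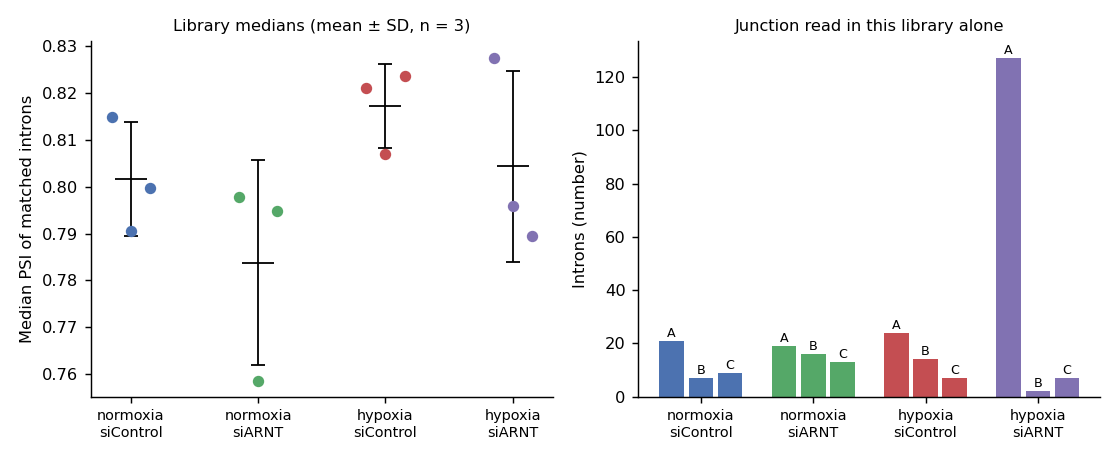
Median PSI of annotated introns in each library (left, with group mean ± SD, n = 3) and number of introns with a junction read in that library alone (right). Hypoxic siARNT replicate A has 127 such introns, against 2 to 24 in the other libraries.

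Among annotated introns, more were higher than lower in hypoxia and more were lower than higher with siARNT, by small median differences. The introns share 3 libraries per group, so these counts are a description, and no test was run on them. The library medians averaged 0.8017 ± 0.0122 in normoxic siControl, 0.7838 ± 0.0219 in normoxic siARNT, 0.8172 ± 0.009 in hypoxic siControl and 0.8043 ± 0.0204 in hypoxic siARNT cells (SD, n = 3), and neighbouring groups overlapped. With siControl, 592 of 1043 introns were higher in hypoxia and 445 lower, with a median difference in PSI of 0.0057. With siARNT, 655 were higher and 387 lower (median 0.0095), and 610 and 432 without hypoxic siARNT replicate A (0.0069). Without normoxic siARNT replicate B they were 577 and 461, and the median fell to 0.0039. For siARNT against siControl, 414 were higher and 628 lower in normoxia (median -0.0078), and 467 and 570 without normoxic siARNT replicate B (-0.0037). In hypoxia 413 were higher and 625 lower (median -0.0058), and 402 and 634 without hypoxic siARNT replicate A (-0.0095). Leaving out each library in turn kept all 4 medians on their side of 0, with ranges of 0.0035 to 0.0079, 0.0039 to 0.0117, -0.0103 to -0.0037 and -0.0095 to -0.0026. The median replicate SD of PSI of a single annotated intron was 0.0421. Annotated introns over 300 nt stood in the same order, with library medians that averaged 0.8392, 0.8199, 0.8548 and 0.8416 for the groups as listed above.

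Short introns whose groups do not overlap in PSI were no more frequent than among all 4538 introns tested. In hypoxia with siControl 168 of the 2105 (7.98%) were higher in all 3 replicates than in any normoxic one and 69 (3.28%) lower, against 10.3% and 3.48% of all. With siARNT the counts were 129 (6.13%) higher and 48 (2.28%) lower, against 6.85% and 3.02% (9.87% in either direction). siARNT in normoxia gave 88 (4.18%) higher and 157 (7.46%) lower, against 4.76% and 10.6%. siARNT in hypoxia gave 78 (3.71%) higher and 132 (6.27%) lower, against 4.05% and 9.19%. Within the annotated class 12.3% were higher in hypoxia with siControl, against 15.9% of annotated introns over 300 nt, and 12.4% were lower with siARNT in normoxia, against 17.2%. Hypoxic siARNT replicate A was kept in these counts.

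Few single introns passed the test. With limma on the log2 ratio of coverage to junction reads and Benjamini-Hochberg adjustment over 4538 introns, hypoxia in siControl cells called 3 short introns (1 higher, 2 lower), against 0.22% of all introns (0.154% higher, 0.0661% lower). Hypoxia in siARNT cells called 0 (background 0%), siARNT in normoxia called 1 lower (0.11% of all, 0.0661% higher and 0.0441% lower), siARNT in hypoxia called 3 (0.573% of all), with 2 higher (0.0881%) and 1 lower (0.485%), and the interaction called 1 (0.0441%). At an unadjusted p under 0.05 limma had 145, 140, 170, 177 and 115 short introns in that order, which is 6.89, 6.65, 8.08, 8.41 and 5.46% of them, against 8.04, 7.05, 9.7, 10.2 and 5.33% of all introns tested. Hypoxia in siARNT cells had 1 to 3 calls without normoxic siARNT A or C or hypoxic siARNT A or C. siARNT in normoxia had 0 without normoxic siARNT B, 2 without normoxic siControl B or C and 3 without normoxic siARNT A. siARNT in hypoxia had 1 without hypoxic siControl C or hypoxic siARNT B, and 4 without hypoxic siARNT A. The interaction had 2 to 4 without any 1 library other than normoxic siControl A, normoxic siARNT B, hypoxic siControl C and hypoxic siARNT B. edgeR's quasi-likelihood test on the same reads called 0 in all 5 comparisons, with 89, 83, 137, 95 and 76 at an unadjusted p under 0.05.

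The TIAL1 intron of 96 nt was more retained in hypoxia with siControl. TIAL1 (ENSG00000151923.13) encodes an RNA-binding protein that acts in splicing and in stress granules. In siControl cells its PSI was 0.692, 0.688 and 0.706 in normoxia (replicates A, B and C) and 0.835, 0.859 and 0.834 in hypoxia. In siARNT cells it was 0.735, 0.714 and 0.729 in normoxia and 0.835, 0.762 and 0.771 in hypoxia. The hypoxic and normoxic values did not overlap with either siRNA. The rise with siControl was 1.23 on the log2 scale (SE 0.19, limma adjusted p = 0.017; 0.00113 to 0.372 over 20 alternatives, called in 12), and with siARNT 0.51 (SE 0.19, adjusted p = 0.578). Counts of the whole gene differed by 0.09 (edgeR log2, adjusted p = 0.537) between hypoxia and normoxia. The call was lost (adjusted p 0.0524 to 0.0947) without any 1 of normoxic siControl replicates A, B and C or hypoxic siControl replicates A and B. It was also lost with a term for the transfected well (siRNA and letter together), at 0.0952. A second TIAL1 intron, of 174 nt, averaged 0.565 in normoxia and 0.723 in hypoxia with siControl, a difference of 1.02 (adjusted p = 0.241).

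Of the introns of CCDC107 (ENSG00000159884.7), 1 fell with siARNT in normoxia and another with hypoxia in siControl cells. The annotated intron of 98 nt had PSI 0.641, 0.516 and 0.562 in normoxic siControl, 0.337, 0.256 and 0.321 in normoxic siARNT, 0.397, 0.476 and 0.498 in hypoxic siControl, and 0.372, 0.335 and 0.302 in hypoxic siARNT cells. siARNT and siControl values did not overlap in normoxia or in hypoxia. In normoxia the fall was -1.62 (SE 0.26, limma adjusted p = 0.0438; 0.000765 to 0.194 over 19 alternatives, called in 9). It was lost (adjusted p 0.0598 to 0.172) without normoxic siControl A or C or any 1 normoxic siARNT library. The gene's counts rose by 0.82 on the log2 scale in the same comparison (edgeR, adjusted p = 0.0135), from 5.63 to 9.95 CPM. An overlapping unannotated intron of 123 nt was at 0.941, 0.982 and 0.980 in normoxic siControl cells, where it had 5, 1 and 1 junction reads, and at 0.878, 0.789 and 0.828 in hypoxic siControl cells. That fall was -2.44 (SE 0.44, limma adjusted p = 0.0486; 0.00815 to 0.255 over 19 alternatives, called in 6), and was no longer called (0.0698 to 0.208) without any 1 of the compared libraries other than normoxic siControl A, or (0.214) with a term for the transfected well.

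The CYP3A5 intron of 108 nt was less retained with siARNT in hypoxia. CYP3A5 (ENSG00000106258.9) is a cytochrome P450 that metabolises drugs and steroids. Its PSI was 0.414, 0.394 and 0.377 in normoxic siControl, 0.359, 0.391 and 0.364 in normoxic siARNT, 0.493, 0.458 and 0.550 in hypoxic siControl, and 0.353, 0.369 and 0.319 in hypoxic siARNT cells. Hypoxic siControl stood above the other 3 groups with no overlap. The fall with siARNT in hypoxia was -0.91 (SE 0.17, limma adjusted p = 0.0361; 0.000607 to 0.465 over 19 alternatives, called in 10), and the gene's counts fell by 0.89 on the log2 scale (edgeR, adjusted p = 3.62e-06). The call was lost (limma adjusted p 0.088 to 0.147) without any 1 of the compared libraries other than hypoxic siControl B. In bulk RNA, a change in the share of cells and a change per cell cannot be told apart.

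The RPL37 intron of 28 nt rested on few reads. Its junction had 8, 6 and 8 reads in normoxic siControl, 5, 7 and 5 in normoxic siARNT, 14, 13 and 15 in hypoxic siControl, and 2, 2 and 6 in hypoxic siARNT cells. The rise with siARNT in hypoxia was 2.11 on the log2 scale (SE 0.41, limma adjusted p = 0.0391; 0.0083 to 0.778 over 18 alternatives, called in 6), while PSI differed by 0.003. The call was lost (adjusted p 0.0521 to 0.16) without any 1 of the 6 libraries compared.

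**Figure D3:**
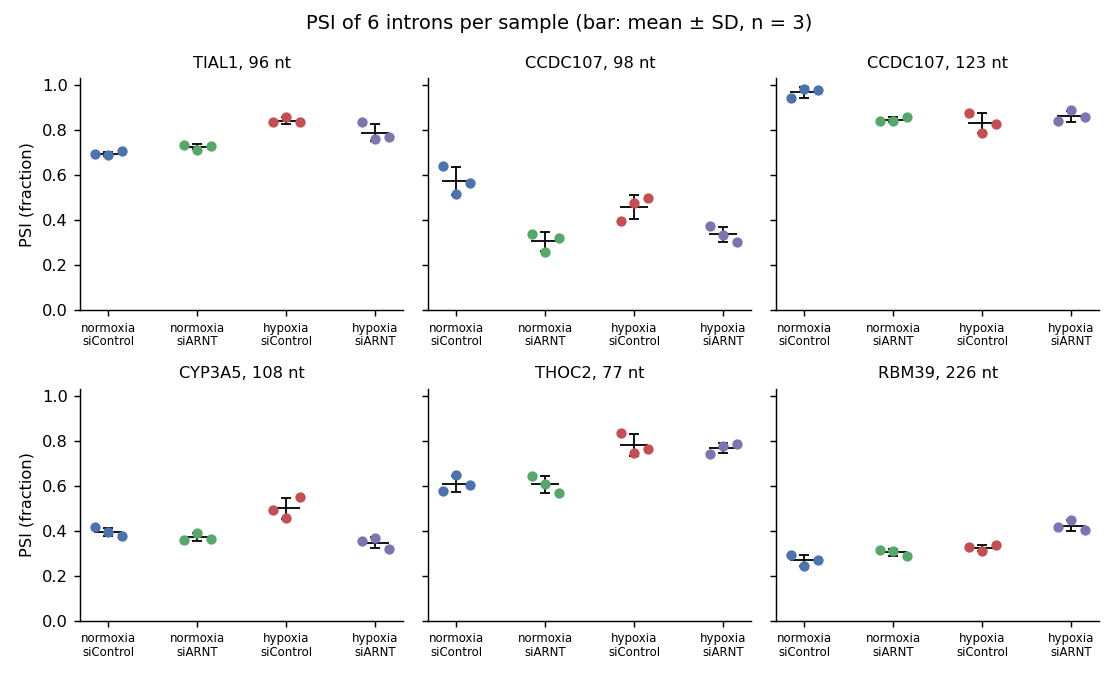
PSI (fraction) of 6 introns in each of the 12 samples, 1 point per sample, with the group mean ± SD (n = 3). TIAL1 is higher in both hypoxic groups than in the normoxic groups, and CCDC107 (98 nt) is lower in both siARNT groups than in the matching siControl groups.

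The RPS7 intron of 46 nt had junction reads in 1 group alone. RPS7 (ENSG00000171863.8) encodes a protein of the small ribosomal subunit, and its intron matched no annotated one. The junction had 409, 256 and 273 reads in hypoxic siControl cells and 0 in each of the other 9 libraries, so PSI was 0.966, 0.974 and 0.968 there and 1 elsewhere. The junction's share was 3.09% ± 0.442 (SD, n = 3). A count of 0 allows up to 0.0319% in normoxic siControl, 0.0246% in normoxic siARNT and 0.0364% in hypoxic siARNT cells (3 reads over the group). Such limits cover counting error only. Other short introns also went from 0 to 20 or more junction reads between libraries, so no fold difference is drawn from these limits. The limma adjusted p was 1.78e-06 for hypoxia in siControl (1.49e-07 to 0.58 over 18 alternatives), 4.71e-06 for siARNT in hypoxia (2.84e-07 to 0.859 over 17) and 0.000259 for the interaction (7.94e-06 to 1 over 23). The 3 calls held without any 1 library. When exon coverage replaced the junction reads, the difference in hypoxia was 0.11.

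Junctions of this on and off kind were frequent. Of the 2105 introns, 352 (16.7%) had 0 junction reads in at least 1 library and 20 or more in another, against 238 (9.8%) over 300 nt, and 342 of the 352 were unannotated. In 167 of the 352 a single library held all the junction reads (hypoxic siARNT A in 33 of them), and in 21 exactly 3 libraries did. RPS7 was the 1 of those 21 whose 3 libraries formed a group. MAT2A, the methionine adenosyltransferase gene, had 101, 0 and 80 reads at an intron of 202 nt in normoxic siControl, 0 in normoxic siARNT and hypoxic siControl, and 58, 45 and 39 in hypoxic siARNT cells. Its interaction had a limma adjusted p of 0.16 and was called in 1 of 23 alternatives. That 1 left out normoxic siControl B, the library at 0 in its group (limma adjusted p 4.09e-07), and lends no support on its own.

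**Figure D4:**
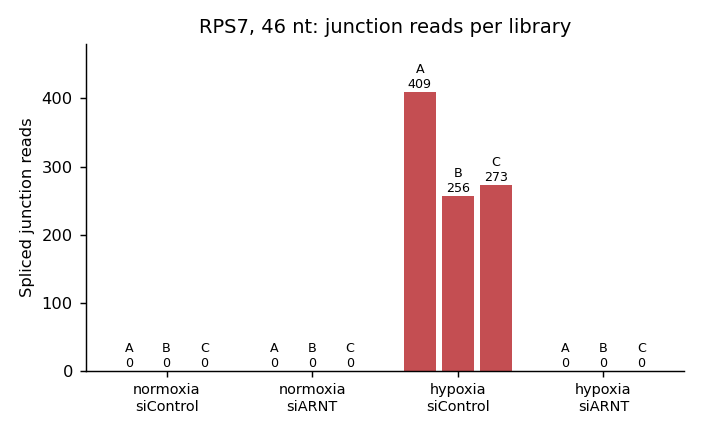
Spliced junction reads of the RPS7 intron of 46 nt in each library, by group, 1 bar per library. The 3 hypoxic siControl libraries have 409, 256 and 273 reads and the other 9 have 0.

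Because of these junctions 3 further settings were added after the data had been seen: only introns with a junction read in all 12 libraries (2340 tested), only annotated introns of any length (2582 tested), and exon coverage in place of junction reads (4538 tested). Short introns called in hypoxia with siControl then numbered 8 of 997, 9 of 1043 and 8 of 2105. That is 0.802%, 0.863% and 0.38% of them, against 1.54%, 1.63% and 0.859% of all introns in the same settings. For siARNT in normoxia they numbered 4 (0.401%, against 1.24%), 4 (0.384%, against 1.32%) and 11 (0.523%, against 0.419%). With siARNT in hypoxia they numbered 7 (0.702%, against 2.22%), 5 (0.479%, against 1.59%) and 25 (1.19%, against 2.49%). Of these 25, 24 were lower, and the share of all introns by direction was not taken. Hypoxia in siARNT cells had 0 in all 3 settings (background 0.0427%, 0.0387% and 0%), as did the interaction (0%, 0.0387% and 0%). The genes named next were chosen after their values had been seen.

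THOC2, a subunit of the THO complex in mRNA export, had at its 77 nt intron PSI 0.578, 0.647 and 0.603 in normoxic and 0.834, 0.745 and 0.764 in hypoxic siControl cells. In siARNT cells it had 0.644, 0.606 and 0.568 in normoxia and 0.743, 0.776 and 0.784 in hypoxia. Hypoxic values were above all normoxic ones with either siRNA. The differences were 1.20 (limma adjusted p = 0.0621) and 1.09 (SE 0.24, adjusted p = 0.285; called in 0 of 20 alternatives, with 0.469 without hypoxic siARNT A), and among annotated introns the first had an adjusted p of 0.00913. COMMD3 (92 nt) averaged 0.0558 ± 0.0071 in normoxic and 0.116 ± 0.0321 in hypoxic siControl cells (SD, n = 3), with a limma adjusted p of 0.0721, and of 0.011 among annotated introns. PMPCB (75 nt), a subunit of the mitochondrial processing peptidase, averaged 0.116 and 0.186. ACADVL (267 nt), the very long-chain acyl-CoA dehydrogenase, averaged 0.258 and 0.345, and MRPS18C (88 nt), a mitochondrial ribosomal protein, 0.122 and 0.201. The limma adjusted p of these last 3 was 0.0701, 0.0537 and 0.137 over all introns, and 0.011, 0.00913 and 0.0148 among annotated introns. edgeR called none of the introns named in this paragraph or the next ones.

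The 243 nt intron of ANKRD37, a HIF target, passed the read limit of 20 through the hypoxic groups. Its comparison of hypoxia with normoxia below is therefore not independent of the filter. The gene stood at 0.686 CPM in normoxic and 5.47 CPM in hypoxic siControl cells (edgeR log2 change 3.00, adjusted p = 4.4e-07). Its PSI averaged 0.519 ± 0.224 in normoxic siControl cells, on 5 to 13 junction reads per library, and 0.17 ± 0.0011 in hypoxic ones, on 65 to 105 (SD, n = 3). The limma adjusted p was 0.145, and 0.0137 among annotated introns. CIDEB (181 nt), a lipid-droplet protein, averaged 0.362 and 0.24, with a limma adjusted p of 0.209, and of 0.0454 among annotated introns.

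The 94 nt intron of PABPC4, a cytoplasmic poly(A)-binding protein, was just above the read limit with a mean of 20.28 reads. It passed that limit through the junction reads of normoxic siARNT cells, so the comparison below is not independent of the filter. Its junction had 0, 1 and 1 reads in normoxic siControl and 14, 87 and 7 in normoxic siARNT cells, while the gene rose from 74.3 to 205 CPM (edgeR, adjusted p = 1.79e-08). PSI averaged 0.892 ± 0.109 and 0.29 ± 0.12 (SD, n = 3), with a limma adjusted p of 0.0929, and of 0.0066 among annotated introns. CYP4F12 (204 nt), a cytochrome P450, averaged 0.746 and 0.537 in normoxia, and SDR39U1 (290 nt) 0.842 and 0.652, with limma adjusted p of 0.129 and 0.186 over all introns and of 0.0126 and 0.0145 among annotated introns. In hypoxia SLC20A1 (90 nt), a phosphate transporter, averaged 0.239 with siControl and 0.146 with siARNT, and LMO7 (100 nt) 0.898 and 0.831, with limma adjusted p of 0.0871 and 0.129 over all introns and of 0.0291 and 0.0274 among annotated introns. RBM39 (226 nt), a splicing factor, went the other way: PSI was 0.325, 0.309 and 0.336 in hypoxic siControl and 0.417, 0.448 and 0.402 in hypoxic siARNT cells, which did not overlap (limma adjusted p = 0.102). The limma adjusted p was 0.0451 with junction reads in all libraries, 0.0538 among annotated introns and 0.906 with exon coverage. ISCU (123 nt), the iron-sulfur cluster scaffold, averaged 0.619 and 0.477 in hypoxia (limma adjusted p = 0.306, and 0.155 among annotated introns), and its coverage relative to exon coverage fell by 1.23 on the log2 scale (SE 0.16, limma adjusted p = 0.00295).

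Short introns in the listed genes of the splicing machinery, which leave out TIAL1, had no call over all introns with junction reads. With exon coverage SRSF5 (259 nt) and RBM25 (145 nt), both splicing regulators, were lower with siARNT in hypoxia by log2 changes of -0.45 and -0.74 (limma adjusted p = 0.0408 and 0.0278). In 7 genes of SR and related splicing regulators there were 12 short introns, 9 annotated, with a median PSI of 0.888. Their median difference in PSI was -0.0053 for hypoxia with siControl, 0.0092 with siARNT, -0.0155 for siARNT in normoxia and 0.0008 in hypoxia, and limma called 0 of 12 in each. SRSF2 (278 nt) averaged 0.879, 0.84, 0.839 and 0.872 in normoxic siControl, normoxic siARNT, hypoxic siControl and hypoxic siARNT cells, and SRSF7 (244 nt) 0.824, 0.825, 0.904 and 0.858. The 13 short introns of 7 hnRNP genes had a median PSI of 0.963 and 0 calls. HNRNPH1 (206 nt) averaged 0.248, 0.227, 0.284 and 0.279 in the same order. The 2 introns each of the splicing kinases and the core spliceosome, and the 1 of nonsense-mediated decay and the exosome, had no call. EIF4A1 (268 nt), the translation initiation helicase, averaged 0.833, 0.825, 0.834 and 0.836, which differ by less than its replicate SD of 0.0132 in hypoxic siARNT cells.

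Most short introns of the ribosomal protein genes were unannotated or matched in length alone. Cytosolic ribosomal protein genes held 139 short introns in 46 genes, 15 of them annotated, with a median PSI of 0.999 and 53 of the on and off kind. RPS7 and RPL37 were their calls, 1 for hypoxia with siControl, 2 for siARNT in hypoxia and 1 for the interaction. HIF targets held 10 short introns in 6 genes, 3 annotated, with a median PSI of 0.997, and glycolysis genes 8 in 4, with 0.997. limma called 0 of them, where it called 0.22% of all introns for hypoxia with siControl. In gene counts 36 of 39 HIF-target genes rose in that comparison (edgeR), where 25.3% of all genes were called in either direction. Translation initiation factors held 25 (median PSI 0.962), mitochondrial ribosomal proteins 13 (0.95), RNA helicases 12 (0.978), the proteasome 6 (0.993), keratins 4 (0.986), the respiratory chain 4 (0.973) and tubulins 3 (0.992), with 0 calls by limma.

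Many host genes changed in their counts. Of 1167 host genes tested by edgeR with Benjamini-Hochberg adjustment, 368 (31.5%) changed in hypoxia with siControl, against 25.3% of all 16999 genes. With siARNT 66 (5.66%) changed in hypoxia, against 4.09%. siARNT changed 275 (23.6%, against 20.2%) in normoxia and 384 (32.9%, against 29.1%) in hypoxia, and the interaction was called for 75 (6.43%, against 4.69%). Without normoxic siControl replicate C the first count was 239. The second was 42 without normoxic siARNT B, 20 to 23 without A or C, and 12 to 16 without hypoxic siARNT A or B. The third was 123 to 178 without any 1 normoxic siControl library or normoxic siARNT B, and the interaction 25 to 47 without any 1 library other than normoxic siARNT B, hypoxic siControl C and hypoxic siARNT C. Of 35 core spliceosome genes 10 fell and 0 rose in hypoxia with siControl, where 25.3% of all genes were called. With siARNT 5 were higher and 3 lower in normoxia (20.2% of all genes), and 14 were higher and 0 lower in hypoxia (29.1%). The 10 called for hypoxia with siControl and the 8 for siARNT in normoxia stood near those shares. The direction was not particular to the spliceosome. In hypoxia with siControl 49 of 98 respiratory chain genes fell and 1 rose, and 26 of 50 proteasome genes fell and 1 rose. Of 79 mitochondrial ribosomal protein genes 44 fell and 2 rose, while of 39 HIF targets 36 rose and 1 fell. Shares of all genes by direction were not taken.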

How the data were processed

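Gene expression and splicing were measured by stranded poly(A) RNA-seq, single-end, in 12 libraries of AsPC-1 cells. The submitters' processing notes name Trimmomatic, STAR 2.4.2a and GRCh38.p10, without their roles, and the event caller is not given in the sources used here. The deposited intron-retention table gives, per the file headers, spliced junction reads as counts, the mean read coverage of the intron and its neighbouring exons as a signal, and PSI as a fraction. The fraction was recomputed from coverage and junction reads and lay within 0.0051 of the authors' value for 99.18% of values. The deposited gene files hold counts of reads per gene, and lines that name no gene held 22.71 to 25.2% of reads and were left out.

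The file coordinates carried no build and lay at GRCh38 positions for 1.19% of the placed introns, so they are not printed. Instead 1510 introns were placed by gene, intron length and exon length in GENCODE 29, and 1357 had a sequence.

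limma 3.58.1 (R 4.3.3) tested log2((coverage + 0.5)/(junction reads + 0.5)) over all 12 samples with 4 group means and a variance trend on the counting variance. The 5 comparisons were hypoxia within each siRNA, siARNT within each oxygen level, and their interaction, which asks whether the effect of hypoxia differs with siARNT. p-values were adjusted by Benjamini-Hochberg over 4538 introns at 0.05. edgeR 4.0.16 tested genes by quasi-likelihood, and DESeq2 1.42.0 was an alternative. Both fits were run on simulated data with known changes. The simulated introns did not include junctions of the on and off kind, so the intron fit was not tested on those. Depth limits precision: intervals and limits cover counting error only. Alternatives were other pseudocounts, read minimums, scales, tools, a length limit of 200 nt, replicate blocks and leaving out each replicate. Tables and figures used Python 3.11.15, pandas 2.3.3 and matplotlib 3.10.9.

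Named introns were the called ones with the largest changes (with at least 50 reads, or the 3 of lowest p where under 3 were called), those of highest PSI or reads, the shortest, those beside the length limit, and the most-read intron in listed splicing, translation, glycolysis, HIF and epithelial genes. The members and lists were chosen with earlier results of these data known, and the lists support nothing on their own. A few introns of the named rule are not reported here.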

Additional observations from a re-analysis of the deposited data

Results flagged for a closer look

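The RPS7 intron of 46 nt is listed because the effect of hypoxia differed between siControl and siARNT cells by the test of that difference (limma interaction, adjusted p = 0.000259). Its junction reads were present in all 3 hypoxic siControl libraries and at 0 in the other 9. With edgeR, exon coverage in place of junction reads, a pseudocount of 0.1 or the arcsine scale the interaction was not called.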

How the results depend on the processing

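The counts of short introns called were small, and the settings named here moved them by over 1.5 times; the cause was not tested. For hypoxia in siControl (3 called) the count was 7 with a pseudocount of 0.1, 6 with a minimum of 50 reads, 6 on the arcsine scale, 0 with edgeR, 8 with junction reads in all libraries, 8 with exon coverage, 9 among annotated introns, and 2 to 3 with 1 library left out. For hypoxia in siARNT (0) it was 1 on the arcsine scale, 1 with only the 6 samples compared, and 0 to 3 with 1 library left out. For siARNT in normoxia (1) it was 0 with a pseudocount of 1, with edgeR or without the variance trend, 2 on the arcsine scale, 4 with junction reads in all libraries, 11 with exon coverage, 4 among annotated introns, and 0 to 3 with 1 library left out. For siARNT in hypoxia (3) it was 6 with a pseudocount of 0.1 or on the arcsine scale, 0 with edgeR, 1 without the variance trend, 7, 25 and 5 in the 3 added settings, 1 with a PSI difference of at least 0.05, and 1 to 4 with 1 library left out. The interaction (1) had 0 with a pseudocount of 0.1, the arcsine scale, edgeR, the 3 added settings or the PSI difference, and 1 to 4 with 1 library left out. With exon coverage 4 values changed sign: RPS7 to 0.11 in hypoxia with siControl and -0.14 for the interaction, and MAT2A to 0.05 for hypoxia with siARNT and 0.09 for the interaction.

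Replicate letters were not shown to pair the samples: over 18 same-letter pairs r ran from -0.048 to 0.083, and from -0.094 to 0.094 over 36 pairs of other letters. With the replicate block the counts were 2, 0, 0, 2 and 1 in the same order, and with the block by transfected well hypoxia in siControl had 1. Host genes called with the replicate block numbered 409, 79, 408, 431 and 86.

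Host genes called for hypoxia in siARNT numbered 40 and for the interaction 45 with no filter on low counts. With 1 library left out they numbered 239 to 300, 12 to 47, 123 to 294, 287 to 372 and 25 to 101. The median PSI of the short introns in normoxic siControl, normoxic siARNT, hypoxic siControl and hypoxic siARNT cells was 0.9579, 0.9536, 0.9587 and 0.9544. It was 0.9455, 0.9392, 0.9486 and 0.9421 with a minimum of 10 reads, and 0.9775, 0.9736, 0.9773 and 0.9753 with 50. With a limit of 200 nt it was 0.9664, 0.962, 0.9676 and 0.9631. The unannotated introns had a median of 5.83 junction reads, which limits the precision of their junction shares.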
